A study of Mus musculus with 35 samples.

Results

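The PRAME and oogenesin genes belong to a large mouse family of leucine-rich repeat proteins that has expanded in tandem copies and is expressed mostly in germ cells and early embryos. Its members were taken as every row of the gene count table whose name begins with Oog, Pramel or Pramef followed by a number, on an autosome, which gave 14 of 24480 genes. A row of these names on the X chromosome, Pramel3, was left out by that rule. PRAME proteins are best known as recognition subunits of CUL2 ubiquitin ligases, in which the repeat domain is held to select the protein to be degraded. The oogenesins (Oog1 to Oog4) are oocyte genes, and their transcripts are stored in the egg and inherited by the embryo. Pramel7 and Pramel6 are known from early embryos and naive pluripotent cells, and PRAMEL7 has been described as a factor that targets the DNA methylation cofactor UHRF1.

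Total RNA of wild-type C57BL/6NRj mouse embryos was sequenced in 4 groups. Zygotes were injected with Kdm5b-yfp mRNA (10 samples) or with nuclease-free water (10 control samples) and collected 17 h after ovulation. Early 2-cell (2C) embryos were injected in the same ways and collected 5.5 to 8 h after division (6 Kdm5b and 9 control samples). Kdm5b encodes a demethylase of histone H3 lysine 4 methylation, and the mRNA was delivered at about 1150 ng per microlitre with a C-terminal YFP tag. The question put by the study was whether early loss of this mark alters transcription. No group received mRNA for YFP alone, so the effect of the enzyme and that of injected mRNA in general cannot be told apart. All zygotes were single cells. Of the control 2C samples, 6 were single intact embryos, 1 was a pool of 2 blastomeres and 2 were pools of 3, each blastomere coming from a different embryo. The Kdm5b 2C samples were 5 single intact embryos and 1 such pool of 3. The 2C embryos were grown from zygotes that had been frozen, and zygote and 2C libraries were not prepared on the same day, so stage, freezing and library day cannot be told apart in any comparison between stages. Nothing in the labels ties samples to separate females, so p-values measure the spread between these embryos.

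The total count per sample ranged from 8705584 to 17797581. Kdm5b itself took 2.30% to 10.4% of the counts in injected zygotes and 8.27% to 15.8% in injected 2C samples, against at most 0.0190% in any control, and its row was removed before normalisation. Summed over 5 transcripts of the 2-cell stage, control zygotes held 3.58 to 55.0 TPM and control 2C samples 204.7 to 929.9 TPM. TPM (transcripts per 1000000) was computed from counts and exon length, and is the scale on which genes are compared with each other here. Over 7 maternal oocyte transcripts control zygotes held 4967 to 6833 TPM in sum, against 3038 to 6167 TPM in control 2C samples. Over 10 cumulus and granulosa cell markers the sum ran from 22.1 to 46.7 TPM in zygotes and from 12.4 to 51.0 TPM in 2C samples. Most of it was Cyp19a1, with means of 27.2 TPM in control and 30.6 in Kdm5b zygotes. Its means were 21.2 TPM in control and 15.6 in Kdm5b 2C samples. Of the 10, Amh and Inha were at 0 in every 2C sample. Over 4 sperm markers the sum lay between 0 and 68.1 TPM, with Tnp2 at 0 in every sample. Most of it was Prm2, with means of 21.7 TPM in control and 26.1 in Kdm5b zygotes. In control and Kdm5b 2C samples the means of Prm2 were 9.71 and 5.50 TPM. The part of these transcripts in the results below was not tested. No external standard was added, so all levels are shares of an embryo's RNA, and a lower level of a transcript cannot be told apart from a rise in the rest.

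Of the 14 members, 11 lie within 1.01 megabases of chromosome 4 (GRCm38, chr4:143394441-144408464), 7 on the minus and 4 on the plus strand. The same stretch holds 26 genes of the table, 10 of which carry a family name only in their newer RefSeq symbol. The remaining members are Oog1 on chromosome 12 (chr12:87602665-87608845) and Pramel7 and Pramel6, which lie near each other on chromosome 2 (chr2:87489088-87492418 and chr2:87508458-87510865). All 14 are annotated as protein coding. Symbols have changed since the annotation was made: Pramef8, Pramef6, Pramef25, Pramef17 and Pramef12 are now Pramel12, Pramel11, Pramel16, Pramel14 and Pramel13.

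Near-identical copies limit what can be counted in this family, since fragments that aligned to several places were not counted. Each member's transcript in GENCODE M21 was divided into every possible stretch of 91 bases, the length of a trimmed read, and each stretch was looked for in the transcripts of all other genes. Reads were paired, and a fragment can be placed by its other read. The share of stretches found elsewhere therefore need not equal the share of fragments lost. The share found elsewhere was 92.3% for Oog1, mostly in Gm2042, 88.2% for Pramel4, mostly in Gm13102, and 59.3% for Pramef17, mostly in Gm13128. It was 32.2% for Pramef25, 24.6% for Oog2, 20.5% for Pramef6, 11.8% for Oog3 and 6.56% for Pramel5. No stretch of Pramel7, Pramel6, Pramel1, Pramef8, Oog4 or Pramef12 was found in another gene's transcript. The levels of Oog1, Pramel4 and Pramef17 are therefore the most uncertain. They can be too low by an amount that these counts do not give. Levels of the other members with shared stretches can also be too low. Only exact matches in annotated transcripts were looked for, so stretches that differ by a base were not counted. A comparison of one gene between groups meets the same shared stretches on both sides. Whether the share of fragments lost was equal between groups was not tested.

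**Figure D1:**
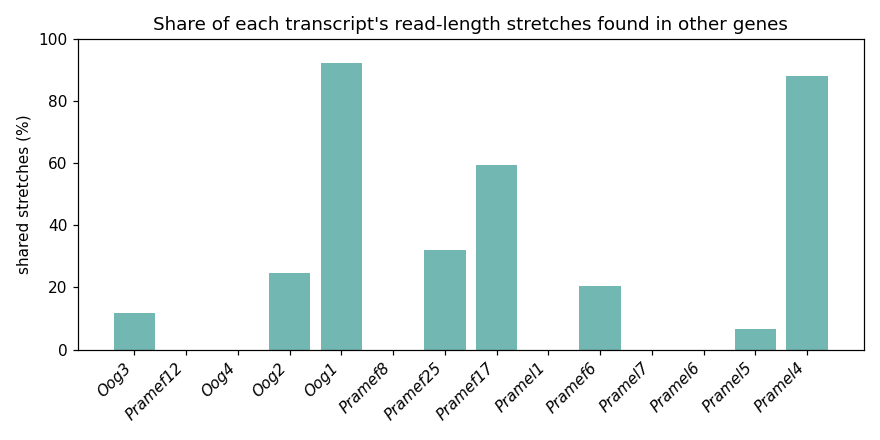
Share of read-length stretches (91 bases) of each member's transcript that also occur in a transcript of another gene, in percent, with members ordered by mean TPM over all samples. Oog1 and Pramel4 stand highest, at 92.3% and 88.2%, and 6 members are at 0.

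Between members, coding sequences were 49.5% to 85.2% identical over 91 pairs, with a median of 56.99%. The closest pair was Pramel4 and Pramel5. Oog3 was closest to Oog1, at 80.4%, and Pramel7 to Pramef17, at 79.9%.

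The promoters of the oogenesins are shown because these genes have alike sequences before their start and yet differed in direction between the stages, as described below. The 250 bases before each start, read 5′ to 3′ on the gene's strand, are those of RefSeq on GRCm38.p6. Capitals mark an 11-base stretch held by all 4, the longest run that they share on the same strand. They also mark a TATA box where the exact letters TATAAA are found. A match to TAATTG, a homeobox-type element, is marked on either strand. Other TATA forms were not searched for, and the tatata after the shared stretch of Oog1 and Oog4 is left unmarked.
Oog1 (chr12:87602415-87602664, plus strand): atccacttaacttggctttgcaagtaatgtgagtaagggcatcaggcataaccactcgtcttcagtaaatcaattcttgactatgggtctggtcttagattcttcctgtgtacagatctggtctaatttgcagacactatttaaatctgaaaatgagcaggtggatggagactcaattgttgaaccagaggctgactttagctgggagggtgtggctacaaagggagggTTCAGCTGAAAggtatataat
Oog2 (chr4:144190467-144190716, plus strand): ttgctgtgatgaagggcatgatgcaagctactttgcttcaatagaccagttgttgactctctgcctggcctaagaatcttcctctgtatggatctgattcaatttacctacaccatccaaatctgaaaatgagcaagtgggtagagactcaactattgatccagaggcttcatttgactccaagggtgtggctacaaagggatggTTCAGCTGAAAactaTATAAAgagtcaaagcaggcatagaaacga
Oog3 (chr4:144162652-144162901, minus strand): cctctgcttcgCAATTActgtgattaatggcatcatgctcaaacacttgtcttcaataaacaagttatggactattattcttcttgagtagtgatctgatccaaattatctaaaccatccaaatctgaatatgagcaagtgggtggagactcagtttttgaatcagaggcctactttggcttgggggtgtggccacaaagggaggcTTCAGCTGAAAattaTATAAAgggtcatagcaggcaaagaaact
Oog4 (chr4:143450325-143450574, minus strand): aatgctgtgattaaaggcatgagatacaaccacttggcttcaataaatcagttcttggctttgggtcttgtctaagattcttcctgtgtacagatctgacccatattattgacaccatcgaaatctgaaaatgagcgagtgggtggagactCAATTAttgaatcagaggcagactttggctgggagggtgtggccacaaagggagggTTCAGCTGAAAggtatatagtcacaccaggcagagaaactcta

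Over 300 bases (250 before to 50 after the start), these promoters were 63.9% to 76.7% identical in pairs, against a median of 46.9% over the 78 pairs of 13 members that have an entry. The shared stretch began 21 bases before the start of Oog1, 43 before that of Oog4, 44 before that of Oog3 and 45 before that of Oog2. It holds CAGCTG, a form of the E-box CANNTG. Of 27025 promoters of the reference, 16 held the stretch on either strand, a share of 0.0592%, and no other of the 13 members did. The holders included relatives, among them Pramel26 (Gm13084), Pramel32 (C87499) and Pramel23, so the stretch is not particular to the oogenesins. TATAAA was found in 2 of 13 member promoters, those of Oog3 and Oog2, and in 14.2% of all promoters. TAATTG was found in Oog4, Oog3 and Pramef12 and in 8.15% of all promoters. TAATCC was found in Pramef6, Pramel4 and Pramel5 and in 7.16%, TAATTA in no member and in 5.31%, and CANNTG in all 13 and in 72.1%. Such matches describe these windows and are no evidence of a bound factor.

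In control zygotes 8 of the 14 members had 10 counts or more in 5 of 10 samples or more, and the same number did in Kdm5b zygotes. In each 2C group it was 13 of 14, all but Pramel4. Every member had at least 1 count in some sample of every group. The 14 together made up 2871 ± 242 TPM in control zygotes (SD, n = 10), 3091 ± 169 in Kdm5b zygotes (SD, n = 10), 2725 ± 286 in control 2C samples (SD, n = 9) and 2773 ± 194 in Kdm5b 2C samples (SD, n = 6). This is 0.287%, 0.309%, 0.273% and 0.277% of all transcripts on this scale. With 22 relatives that carry a family name only in the RefSeq table, or lie on the X chromosome, the sum was 8821 ± 734 TPM in control zygotes (SD, n = 10) and 7114 ± 888 in control 2C samples (SD, n = 9). Within a nearly level sum the make-up differed between stages, since Oog3 gave 41.3% of the members' TPM in control zygotes and 63.5% in control 2C samples, while Oog4 gave 21.2% and 6.16%.

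**Figure D2:**
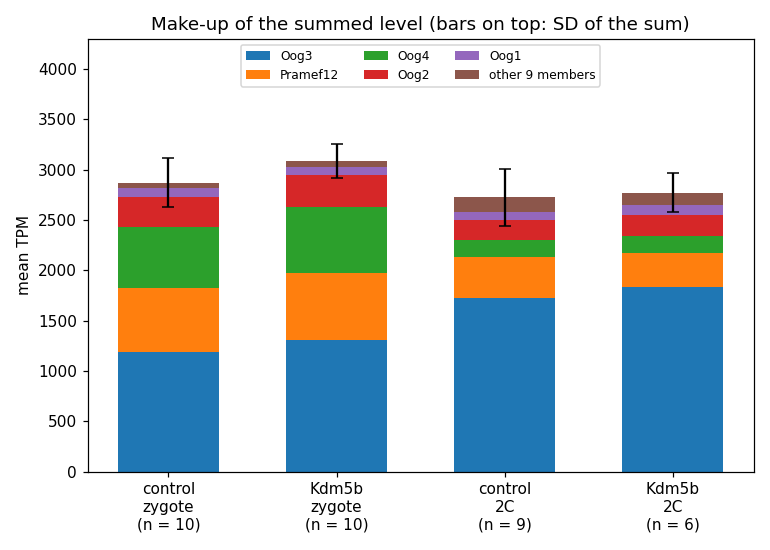
Mean TPM of the 5 most abundant members and of the other 9 together, stacked for each group, with the SD of the summed TPM on top (n = 10, 10, 9 and 6 samples). The sums lie between 2725 and 3091 TPM, and the Oog3 segment is larger and the Oog4 segment smaller in both 2C groups.

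Oog3 was the most abundant member in every group. In control zygotes it held 898 TPM in the lowest sample, 1218 in the median and 1415 in the highest, and ranked 73rd among 24479 genes by its mean. Pramef12, known from male germ cells, followed with 563 to 700 TPM and a median of 645, and Oog4 with 545 to 708 and a median of 589. The ranges of Pramef12 and Oog4 overlapped, and that of Oog3 stood above both. Oog2 held 224 to 336 TPM with a median of 315, below all of these as counted. Oog1, whose product has been described as a partner of the Ras-pathway protein RALGDS, held 64.7 to 112 TPM with a median of 84.7. Pramef8 held 32.3 to 45.1 TPM (median 39.6) and Pramef17 held 6.29 to 27.7 TPM (median 12.0). As counted, the ranges of Oog1, Pramef8 and Pramef17 did not overlap, but the levels of Oog1 and Pramef17 can be too low. Pramel1 held 0.525 to 4.14 TPM. The remaining 6 members had medians of 0.439 TPM or less in control zygotes, and 3 of them, Pramel6, Pramef6 and Pramel4, had 0 counts in 7 of 10 samples each.

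**Figure D3:**
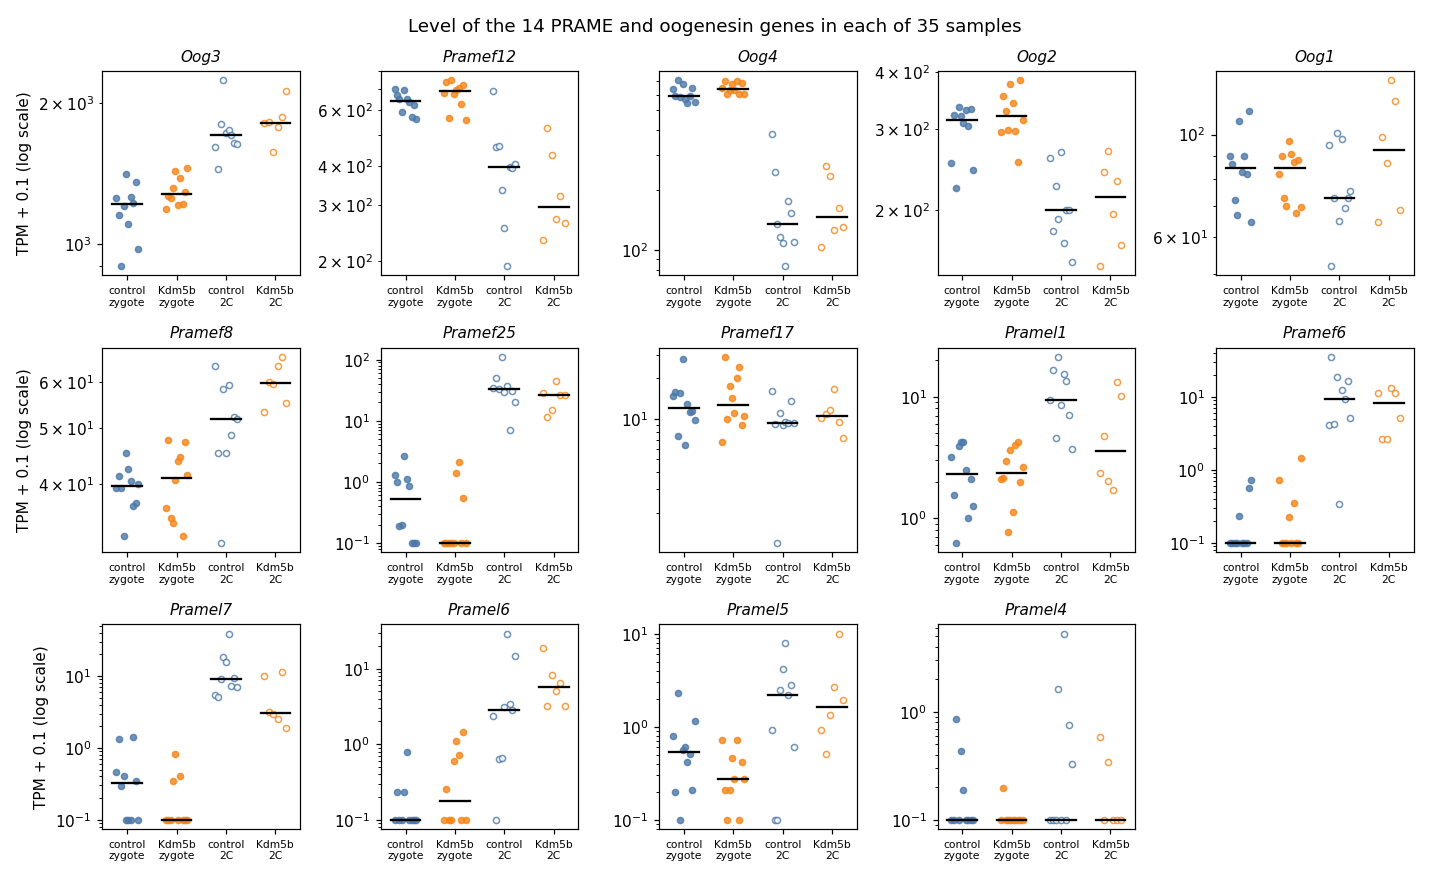
TPM plus 0.1 on a log axis for each of the 14 members in every sample (points) with the median of each group (line); blue points are water-injected and orange points Kdm5b-injected, filled for zygotes and open for 2C samples. Pramef25, Pramef6, Pramel7 and Pramel6 are near the bottom of their axis in zygotes and have higher medians in both 2C groups, and Oog4 is lower in every 2C sample than in any zygote.

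The comparison of control 2C with control zygotes gives the difference between the stages in water-injected embryos. Total RNA does not separate stored from newly made transcripts. Of the 10 members that passed the filter on low counts, 3 rose (Pramef25, Pramel7 and Pramel1) and 1 fell (Oog4), where a call required that the adjusted p was below 0.05 and that the log2 fold change was beyond 1 in either direction. Across the 11968 genes tested, 9.20% were called higher and 13.0% lower. At the adjusted p alone, 5 members were higher and 3 lower, against 26.8% and 25.4% of all genes. The median log2 fold change was 0.20 over the 10 members and 0.02 over all genes. Pramef25 and Pramel7 passed the filter only through their 2C samples and so had to differ, and Pramel6, Pramef6, Pramel4 and Pramel5 did not pass it.

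Pramef25 held 0 to 2.50 TPM in control zygotes, with a median of 0.419, and 7.02 to 111 TPM in control 2C samples, with a median of 32.6. The groups did not overlap, since 9 of 9 2C values exceeded every zygote value. Its log2 fold change was 5.95 ± 0.596 (SE; adjusted p = 7.94e-09, edgeR's quasi-likelihood test, adjusted after Benjamini and Hochberg, as for all adjusted p-values here). The size of that change rests on few zygote counts, of which the median was 5 per sample.

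Pramel7 was listed at 0 in 4 of 10 control zygotes, with a median of 0.224 and a highest value of 1.30 TPM. Control 2C samples held 5.00 to 38.8 TPM, with a median of 9.07. No 2C sample overlapped with a zygote, and the log2 fold change was 5.18 ± 0.678 (SE; edgeR adjusted p = 5.16e-07). Its relative Pramel6, also an early embryo gene, had counts in 3 control zygotes, at 0.699 TPM at most, and in 8 of 9 control 2C samples, with a median of 2.74 TPM and a highest value of 28.95. Without the filter on low counts, its log2 fold change was 5.80 ± 1.03 (SE; edgeR adjusted p = 3.02e-05).

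Pramel1 held 3.62 to 21.2 TPM in control 2C samples, with a median of 9.31, against a zygote median of 2.21. The ranges overlapped, with 8 of 9 2C samples above the highest zygote, and the log2 fold change was 2.31 ± 0.394 (SE; edgeR adjusted p = 2.29e-05). Pramef6 had a median of 0 in control zygotes and 9.26 TPM in control 2C samples, where 1 sample stood at 0.237 TPM and the highest at 35.5. Its log2 fold change without the filter was 6.39 ± 0.82 (SE; edgeR adjusted p = 1.31e-07). Pramel5 and Pramel4 stayed low, with 2C medians of 2.09 and 0 TPM, and without the filter their log2 fold changes were 1.90 ± 0.855 and 2.67 ± 1.28 (SE; edgeR adjusted p = 0.0796 and 0.101).

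Oog4 was the member that fell. Its control 2C samples held 83.3 to 381.9 TPM with a median of 134.9, against 545 TPM in the lowest control zygote, so that the groups did not overlap. The log2 fold change was -1.78 ± 0.198 (SE; edgeR adjusted p = 4.24e-08), a level 3.43-fold lower.

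Among the other abundant members, differences were smaller than the fold threshold and went both ways. Oog3 was higher in control 2C samples, at 1450 to 2243 TPM with a median of 1709, and did not overlap with zygotes, with a log2 fold change of 0.63 ± 0.0858 (SE; edgeR adjusted p = 8.25e-07). Pramef8 was higher by 0.45 ± 0.109 on the log2 scale (SE; edgeR adjusted p = 0.00109). Lower values were found for Oog2, with a log2 fold change of -0.45 ± 0.102 (SE; edgeR adjusted p = 0.000584), and for Pramef12, with -0.59 ± 0.147 (SE; edgeR adjusted p = 0.00163). Oog2 held 154 to 268 TPM in control 2C samples (median 199.7) and Pramef12 held 192 to 693 TPM (median 396), and each overlapped with its zygote range. Oog1 and Pramef17 did not pass, with log2 fold changes of -0.04 ± 0.129 and -0.35 ± 0.328 (SE; edgeR adjusted p = 0.803 and 0.385). Oog3 and Oog4, whose promoters were 72.2% identical, stood on opposite sides, with log2 fold changes of 0.63 and -1.78. Oog4 and Oog2, the oogenesin pair with the most alike promoters (76.7%), were both lower, at -1.78 and -0.45.

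**Figure D4:**
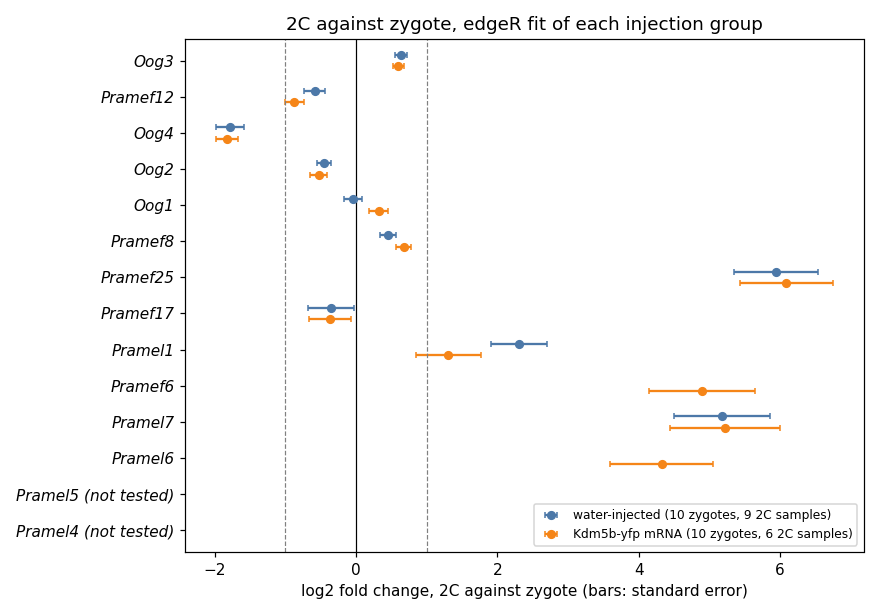
log2 fold change of 2C against zygote (horizontal axis, positive values higher in 2C, with SE bars) for each member tested in the water-injected or the Kdm5b-injected samples, fitted separately. Dashed lines mark the fold threshold. Oog4 lies near -1.8 and Pramef25 near 6 in both, and members shown for 1 injection only did not pass the filter on low counts in the other.

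The stage difference was also fitted in the Kdm5b-injected samples, which share no sample with the controls. Of 12 members tested, 5 rose (Pramef25, Pramel7, Pramef6, Pramel6 and Pramel1) and 1 fell (Oog4). Of the 12390 genes tested, 10.5% were called higher and 16.0% lower. At the adjusted p alone, 7 members were higher and 3 lower, against 29.3% and 29.5% of all genes. The median log2 fold change was 0.64 over the 12 members and 0.01 over all genes, and Pramef25, Pramel7, Pramef6 and Pramel6 passed the filter only through their 2C samples.

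In Kdm5b 2C samples Pramef25 held 11.6 to 44.9 TPM (median 26.6) and in Kdm5b zygotes 0 to 2.01 (median 0). The log2 fold change of Pramef25 was 6.09 ± 0.656 (SE; edgeR adjusted p = 2.36e-08), and it was 7.00 without Kdm5b zygote replicate 7. Pramel7 held 1.80 to 11.3 TPM in Kdm5b 2C samples (median 2.94) and at most 0.722 in Kdm5b zygotes, 7 of which were at 0. Its log2 fold change was 5.22 ± 0.772 (SE; edgeR adjusted p = 2.92e-06), or 6.13 without Kdm5b zygote replicate 5. All 6 Kdm5b 2C samples lay above the highest Kdm5b zygote for each of these members.

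Pramef6 held 2.58 to 13.1 TPM in Kdm5b 2C samples (median 8.12) and at most 1.38 in Kdm5b zygotes. Its log2 fold change was 4.90 ± 0.753 (SE; edgeR adjusted p = 5.11e-06), or 5.86 without Kdm5b zygote replicate 10. Pramel6 held 3.09 to 18.5 TPM in Kdm5b 2C samples (median 5.58) and at most 1.34 in Kdm5b zygotes, and its log2 fold change was 4.33 ± 0.726 (SE; edgeR adjusted p = 1.65e-05). Neither member overlapped between the stages. Pramel5 did not pass the filter, and without it had a log2 fold change of 3.43 ± 0.763 (SE; edgeR adjusted p = 0.000403), at 0.416 to 9.93 TPM in Kdm5b 2C samples and at most 0.619 in Kdm5b zygotes.

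Pramel1 was the least stable of the called members. It held 1.60 to 13.2 TPM in Kdm5b 2C samples (median 3.45) and 0.67 to 4.16 in Kdm5b zygotes (median 2.27), and only 3 of 6 2C samples lay above the highest zygote. Its log2 fold change was 1.31 ± 0.459 (SE; edgeR adjusted p = 0.0172). The call was lost without Kdm5b 2C replicate 5, where the log2 fold change was 0.89 (edgeR adjusted p = 0.116), and without Kdm5b 2C replicate 6, the pool of 3 embryos, where it was 1.01 (edgeR adjusted p = 0.0801).

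Oog4 in Kdm5b 2C samples held 103 to 265 TPM (median 147) and in Kdm5b zygotes 601 to 703 (median 640), with no overlap and a log2 fold change of -1.82 ± 0.155 (SE; edgeR adjusted p = 4.70e-10). Oog3 held 1574 to 2129 TPM in Kdm5b 2C samples (median 1817) and 1192 to 1455 in Kdm5b zygotes (median 1280), a log2 fold change of 0.60 ± 0.0797 (SE; edgeR adjusted p = 6.22e-07). Pramef12 had a log2 fold change of -0.87 ± 0.137 and Oog2 one of -0.53 ± 0.117 (SE; edgeR adjusted p = 6.65e-06 and 0.000413). Pramef8 was at 0.67 ± 0.106 (SE; edgeR adjusted p = 7.18e-06). Oog1, at 0.32 ± 0.139, and Pramef17, at -0.37 ± 0.292, did not pass (SE; edgeR adjusted p = 0.0508 and 0.29).

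The comparisons of Kdm5b with control samples address the effect of the injected mRNA within a stage. In zygotes none of the 8 members tested was called. Of all 11933 genes tested, 0.00838% were called higher and 0% lower. The members' log2 fold changes ran from -0.06 (Oog1) to 0.20 (Pramef17), with a median of 0.10 beside 0.01 over all genes. Only Oog3 had an unadjusted p under 0.05 (edgeR's quasi-likelihood test, p = 0.0301), at 0.15 ± 0.065 on the log2 scale (SE; adjusted p = 0.419). Kdm5b zygotes held 1192 to 1455 TPM of Oog3 and control zygotes 898 to 1415, with overlap. Its 95% interval, from the SE and the t distribution, was 0.01 to 0.28, so that a change of 1 on the log2 scale lay outside it, and this held for each of the 8 members. The widest interval was that of Pramel1, -0.69 to 0.83. The labels give an index number for each library but no batch. Samples were therefore also grouped by index numbers in steps of 8, called strips here, although no source used here says that such a strip was handled together. Within the 2 inferred strips that each held 4 control and 4 Kdm5b zygotes the log2 fold change of Oog3 was 0.17 and 0.07. DESeq2's Wald test also called no member.

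In 2C samples none of the 13 members tested was called, and of 12244 genes 0% were called higher and 0.00817% lower. Only Pramel7 had an unadjusted p under 0.05 (edgeR's quasi-likelihood test, p = 0.0263), at -1.26 ± 0.528 (SE; adjusted p = 0.444). Its Kdm5b 2C samples held 1.80 to 11.3 TPM (median 2.94) and its control 2C samples 5.00 to 38.8 TPM (median 9.07). The groups overlapped, with 4 of 6 Kdm5b samples below the lowest control. The inferred strips were unevenly divided between the injections here, with 3 control and 5 Kdm5b samples on strip 11 and 6 control and 1 Kdm5b on strip 12. The count over all genes changed when this was taken into account, with 6 genes called higher and 47 lower with the strip as a covariate and 4 higher and 66 lower within strip 11, against 0 and 1 without it. With all 35 samples in 1 fit 15 were higher and 55 lower, and no member was called in any of these fits. Within strip 11 the log2 fold change of Pramel7 was -0.67 ± 0.847 (SE; edgeR adjusted p = 0.809), and strip 12 held too few Kdm5b samples for a value. The Kdm5b sample on strip 12 was replicate 5, which held that group's highest Pramel7 and Pramel1 (11.3 and 13.2 TPM). Without this sample the Pramel1 call between the Kdm5b stages was lost, as given above. Pramel6 moved most with the strip, from 0.26 ± 0.845 over all samples to 3.01 ± 1.28 within strip 11 (SE; edgeR adjusted p = 0.968 and 0.319).

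The 95% intervals of most members were wide in 2C samples. That of Pramel7 ran from -2.4 to -0.12 and was the only one to leave out 0, although its adjusted p was 0.444 in edgeR. That of Pramel1 ran from -1.99 to 0.16, that of Pramef25 from -1.43 to 0.31 and that of Pramef6 from -1.97 to 0.80. Those of the more abundant members were narrower, at -0.09 to 0.35 for Oog3, -0.53 to 0.66 for Oog4, -0.24 to 0.38 for Oog2 and -0.66 to 0.29 for Pramef12. With Oog1 (-0.07 to 0.72) and Pramef8 (-0.03 to 0.59), these were the members whose interval left out a change of 1 in both directions. An interaction term over all 35 samples was used to compare the effect of injection at one stage with that at the other. None of the 13 members tested passed, with adjusted p-values of 0.565 or more in edgeR, while 0.109% of 13778 genes passed. DESeq2's Wald test called no member in 2C samples or in the interaction.

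**Figure D5:**
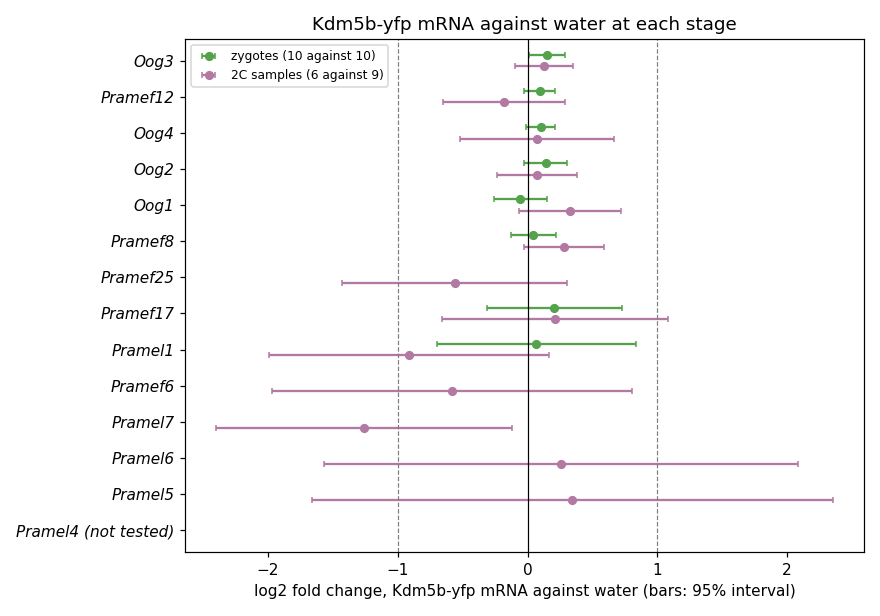
log2 fold change of Kdm5b-yfp mRNA against water (horizontal axis, positive values higher after Kdm5b, with 95% interval bars) for each member tested, 8 in zygotes and 13 in 2C samples. Dashed lines mark the fold threshold. In zygotes each interval lies between the dashed lines, and that of Pramel1 is the widest. Pramel5 and Pramel6, of low level, were tested in 2C samples only and have wide intervals there.

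Relatives of the family that the name rule does not take were counted as a list. The 3 of highest mean TPM were Gm13084 (now Pramel26), with 1657 TPM in control zygotes and 836 in control 2C samples, Gm13023 (Pramel25), with 1067 and 850, and Gm10436 (Pramel51), with 777 and 842. Of 16 relatives tested between control stages 6 were called higher and 2 lower, and of 15 tested in Kdm5b samples 5 were higher and 3 lower, beside 9.20% higher and 13.0% lower of all genes in the former and 10.5% and 16.0% in the latter. Among the 6, Gm13078, B020004J07Rik, Gm13119 and A430089I19Rik had a mean below 1 CPM (counts per 1000000) in control zygotes and passed the filter through their 2C samples, so these counts are a description only. None was called between injections. Genes described as partners or targets of PRAME proteins, or as upstream of Pramel7, were also counted from a fixed list of 14. In controls, 13 were tested between stages, 0 were called higher and 1 lower, against the same 9.20% and 13.0% of all genes. That gene was Dnmt1, the maintenance DNA methyltransferase, at 1802 CPM in control zygotes and 350 in control 2C samples, with a log2 fold change of -2.37 ± 0.161 (SE; edgeR adjusted p = 1.74e-11). Uhrf1, which recruits DNMT1 and is a described target of PRAMEL7, was lower by a smaller amount, with a log2 fold change of -0.71 ± 0.145 (SE; edgeR adjusted p = 0.000185). In Kdm5b samples all 14 were tested, with 1 called higher (Tceb2, the elongin B subunit, at low counts) and 2 lower (Dnmt1 and the elongin C gene Tceb1), against 10.5% and 16.0% of all genes. No gene of this list was called between injections at either stage.

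The promoters of Pramel7 and Pramef17 are printed side by side because they are alike and the genes differed, Pramel7 at a log2 fold change of 5.18 between control stages and Pramef17 at -0.35. The sequences are from the same reference, 250 bases before each start, and capitals mark the longest run of letters that both hold, 23 bases long, on the same strand.
Pramel7 (chr2:87492419-87492668, minus strand): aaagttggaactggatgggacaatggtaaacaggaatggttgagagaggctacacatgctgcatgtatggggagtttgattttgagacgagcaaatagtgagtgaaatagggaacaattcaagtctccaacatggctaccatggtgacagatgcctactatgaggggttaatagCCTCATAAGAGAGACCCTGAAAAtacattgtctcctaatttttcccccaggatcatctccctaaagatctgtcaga
Pramef17 (chr4:143994370-143994619, minus strand): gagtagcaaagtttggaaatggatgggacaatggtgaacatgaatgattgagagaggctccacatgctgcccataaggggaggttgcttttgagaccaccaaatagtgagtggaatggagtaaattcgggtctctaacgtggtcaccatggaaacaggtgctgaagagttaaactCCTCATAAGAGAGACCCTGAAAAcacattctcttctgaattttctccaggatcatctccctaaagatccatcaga

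Over the 300-base windows the pair was 75.2% identical. It was picked because its genes differed, and other alike pairs need not. The most alike member pair, Pramel4 and Pramel5, was 83.4% identical over these windows. Without the filter on low counts both had positive log2 fold changes between control stages, 2.67 and 1.90 (edgeR adjusted p = 0.101 and 0.0796). The marked run begins 76 bases before the start of Pramel7 and 75 before that of Pramef17, and 3 of all 27025 promoters hold it, a share of 0.0111%. The level of Pramef17 is among the uncertain ones, since 59.3% of its read-length stretches occur in other transcripts and none of those of Pramel7 do.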

How the data were processed

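The authors trimmed paired reads with fastp 0.21.0, aligned them to GRCm38 with STAR 2.7.3a and counted fragments per RefSeq gene, by strand, with featureCounts 1.5.1. Fragments with several alignments were not counted. This deposited count table of 35 samples, whole numbers with exon lengths, was used as it stands. A deposited table of estimated counts on repeats was not used here. The depth, 8705584 to 17797581 counts per sample, sets the precision.

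The Kdm5b row was removed. For each comparison only the samples of its groups entered the fit, in edgeR 4.0.16 (R 4.3.3), after TMM normalisation and filterByExpr with a minimum count of 10. P-values of the quasi-likelihood test were adjusted over all genes tested (Benjamini-Hochberg). The SE of an edgeR log2 fold change was derived from that test, as its absolute value over the square root of the F statistic. It is thus not an estimate made by the fit itself. The 95% intervals used a t distribution with 18 degrees of freedom in zygotes and 13 in 2C samples. A call required an adjusted p below 0.05 together with a log2 fold change beyond 1 in either direction, and the interaction of stage and injection only the former. TPM were computed from counts and exon length, and sums over members were given no test. Alternatives were DESeq2 1.42.0 (Wald test, or its size factors in edgeR), other filters on low counts, the Kdm5b row kept, all samples in 1 fit, single embryos only, the index strip, the replicate number and each sample left out. Strips were inferred from index numbers in steps of 8, and their handling is not given in the sources used here. The fits were tested on simulated data. Members called in any comparison or among the 8 of highest mean TPM are given by their lowest, median and highest sample. Members, lists and tests were chosen with earlier results of these data known. Within-strip fits were chosen after seeing the data. Sequences were read with Python 3.11.15 from RefSeq and GENCODE M21.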

Additional observations from a re-analysis of the deposited data

Results flagged for a closer look

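A sample that stood apart from the rest of its group, by Dixon's criterion at 95%, was found in 16 of 56 combinations of member and group. The criterion's rate by chance, about 1 in 20, is for normally distributed values. Many TPM values here are at or near 0 and skewed, so the number of flags cannot be set against that rate. Most flags fall on members of low level. In control 2C samples the highest values were 2243 TPM for Oog3 and 111 TPM for Pramef25, both in replicate 4, and 38.8 TPM for Pramel7, 28.95 TPM for Pramel6 and 5.19 TPM for Pramel4, all in replicate 6. The lowest Pramef17 value of that group was 1.09 TPM, in replicate 3. In Kdm5b 2C samples Pramel5 reached 9.93 TPM in replicate 5 and Pramel6 reached 18.5 TPM in replicate 1. Among control zygotes, replicate 5 held 27.7 TPM of Pramef17 and 2.50 of Pramef25, replicate 3 held 2.21 TPM of Pramel5 and 0.762 of Pramel4, and replicate 6 held 0.699 TPM of Pramel6. Among Kdm5b zygotes the highest values were 1.38 TPM for Pramef6 in replicate 10, 0.722 TPM for Pramel7 in replicate 5 and 0.0986 TPM for Pramel4 in replicate 2, the last of which is 1 count.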

How the results depend on the processing

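Low members limit these results, since zygote counts near 0 leave their fold changes imprecise and the filter decides which members are tested. The control stage comparison called 4 members. It called 7 with DESeq2's Wald test, which was run on all 14 members, 7 with all 35 samples in 1 fit and 8 at the adjusted p alone. The Kdm5b stage comparison called 6, against 2 with a mean of 50 counts or more, where fewer members were tested, and 10 at the adjusted p alone. With each sample left out in turn the control comparison called 4 to 5 members and the Kdm5b comparison 5 to 7, and no called member changed sign under any alternative run. Comparisons between injections called 0 members under every alternative run. Replicate numbers did not pair the samples, since at most 2 of 6 same-numbered pairs had a correlation over 0.1. With the replicate block the control comparison again called 4 members and the Kdm5b comparison 5. Pramel1 then had a log2 fold change of 1.31 (edgeR adjusted p = 0.065), and 1.01 (edgeR adjusted p = 0.0801) with single intact embryos. Without Kdm5b 2C replicate 2, Pramef12 passed the fold threshold at -1.05. The replicate block moved Pramef25, Pramef6 and Pramel6 in Kdm5b samples to 7.46, 6.18 and 4.96. Between stages, the median over all genes was 0.12 (log2) in control and 0.15 in Kdm5b samples in the DESeq2 Wald fit, which also tested more genes (20192 and 20183) and used other size factors. With DESeq2's size factors alone it was 0.06 in both. The mean summed level was 1957, 2114, 1803 and 1808 in control zygotes, Kdm5b zygotes, control 2C and Kdm5b 2C samples as CPM, and 1685, 1787, 994.5 and 941 TPM without Oog3. In both zygote groups 14 members had 1 count or more in some sample, against 8 with 10 counts or more in 5 of 10 samples or more.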

Other observations

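Control 2C replicates 1 and 6, both single intact embryos and named after their values were seen, held opposite ends of the range for Oog4 and Pramef12. They lay on inferred strips 11 and 12, so embryo and strip cannot be told apart for this pair. Replicate 1 had the highest Oog4 (381.9 TPM) and Pramef12 (693 TPM) of the 9 samples and 5.43 TPM of Pramel7. Replicate 6 had the lowest Oog4 (83.3 TPM) and Pramef12 (192 TPM) and the highest Pramel7 (38.8 TPM). Oog4 in single control embryos was 381.9, 244.9 and 134.9 TPM on strip 11 and 116.7, 108.2 and 83.3 on strip 12. Pramef12 was 693, 459 and 464 TPM against 335, 254 and 192. Pramel7 was 5.43, 5.00 and 9.07 TPM against 18.6, 15.4 and 38.8. The control pools, all on strip 12, held 176.7, 153.9 and 109.9 TPM of Oog4 and 7.10, 9.23 and 6.97 of Pramel7. The summed maternal oocyte transcripts were 6101 TPM in replicate 1 and 3991 in replicate 6, and the summed 2-cell transcripts 387 and 640 TPM. The order of the sums was not that of Oog4 in every sample, since replicate 5 held 108 TPM of Oog4 and 254 of Pramef12 with the highest maternal sum (6167 TPM) and the lowest 2-cell sum (204.7 TPM) of the 9. Replicate 2 held 245 TPM of Oog4 with a maternal sum of 3208 TPM.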
